A study of Homo sapiens with 6 samples.

Results

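STEAP1, STEAP2, STEAP3 and STEAP4 encode the STEAP family of membrane metalloreductases, and their rows were looked up by gene name among the 16000 genes of the expression table. STEAP1, STEAP2 and STEAP3 were found there, 3 of the 4 members, and STEAP4 was not analysed here. Poly(A) RNA had been sequenced from LNCaP, an established, androgen-sensitive prostate cancer line. The ALDEFLUOR kit makes cells with aldehyde dehydrogenase activity fluoresce, and a sorter took the brightest 10% (ALDH high, 3 samples) and the dimmest 10% (ALDH low, 3 samples). Both populations are of the same line, were grown in RPMI-1640 with 10% FBS, and carry no other stated treatment. The labels speak of culture after the sort, so RNA may come from cells some time past it, and whether each of the 3 samples of a group had a sort of its own is not stated. P-values therefore measure only the spread between these samples, which may be technical.

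STEAP proteins span the membrane repeatedly and carry a heme group inside it. STEAP2, STEAP3 and STEAP4 pass electrons from NADPH through a flavin and that heme to ferric iron or cupric copper, which makes the metals ready for transport into the cytosol. STEAP1 lacks the NADPH-binding domain of its relatives and can assemble with them. It is abundant at the surface of prostate cancer cells and serves as a target for antibody and T cell therapies. STEAP3 is the ferric reductase of the transferrin cycle, in which iron is released from transferrin inside endosomes.

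STEAP1 (ENSG00000164647) lies at chr7:90154375-90164829 and STEAP2 (ENSG00000157214) at chr7:90167590-90238137, both on the forward strand of GRCh38 and 2760 bases apart. STEAP3 (ENSG00000115107) lies at chr2:119223831-119265652, also on the forward strand. A close relative outside the member list, STEAP1B (chr7:22419444-22727613, reverse strand), bears on how the reads of STEAP1 were assigned, and its own row was not analysed here. Over the 705 coding bases that align between the main coding transcripts of STEAP1 and STEAP1B, 693 were identical (98.3%), and the longest run without a difference was 149 bases. The 210 bases below are the first aligned bases of coding exon 2, at chr7:90160862-90161071 in STEAP1 and on the reverse strand at chr7:22493570-22493779 in STEAP1B. They are shown because a read of STEAP1 can be told from one of STEAP1B only where it covers a capital, which marks the 3 differing bases (GENCODE release 29, GRCh38).
STEAP1: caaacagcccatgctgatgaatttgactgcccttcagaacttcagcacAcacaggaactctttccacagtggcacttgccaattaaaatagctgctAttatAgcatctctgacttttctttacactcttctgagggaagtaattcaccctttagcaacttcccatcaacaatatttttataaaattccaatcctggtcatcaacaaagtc
STEAP1B: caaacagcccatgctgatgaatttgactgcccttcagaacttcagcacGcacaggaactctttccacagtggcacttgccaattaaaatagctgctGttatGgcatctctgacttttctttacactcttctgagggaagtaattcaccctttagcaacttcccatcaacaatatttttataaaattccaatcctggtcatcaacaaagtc
Of the 1622 windows of 100 bases in annotated STEAP1 transcripts, 134 (8.26%) recur in transcripts of STEAP1B. Per the labels the authors counted only uniquely placed reads, so a read that falls wholly in such a stretch could be placed at either gene and would be left out. STEAP2 had 0 of 9069 windows shared with any other gene. STEAP3 shares 500 of its 4562 exon bases (11.0%) with STEAP3-AS1 on the opposite strand. Since the sources used here do not say whether the libraries kept strand, the reads of this stretch cannot be assigned to one of the pair.

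The upstream windows of the 3 genes are shown because STEAP1 and STEAP2 are neighbours with starts of their own and the levels of the 3 genes differ. They come from RefSeq (GRCh38.p14, forward strand). Each begins 250 bases before the gene's RefSeq start and ends before the first transcript start that GENCODE places in it. RefSeq gives 2 windows for STEAP2, and the one with lower coordinates was taken, which lies inside the annotated span of the gene because a further transcript starts well upstream. Capitals mark matches to any of the motifs named in the next paragraph. The coordinates are chr7:90154219-90154374, chr7:90211490-90211685 and chr2:119223584-119223830.
STEAP1: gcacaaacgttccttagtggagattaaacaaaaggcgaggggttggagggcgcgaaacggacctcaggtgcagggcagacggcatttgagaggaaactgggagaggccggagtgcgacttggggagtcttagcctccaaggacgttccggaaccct
STEAP2: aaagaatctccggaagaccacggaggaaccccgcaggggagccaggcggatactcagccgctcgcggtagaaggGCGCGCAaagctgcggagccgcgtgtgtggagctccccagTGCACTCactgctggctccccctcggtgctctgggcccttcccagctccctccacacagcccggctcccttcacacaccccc
STEAP3: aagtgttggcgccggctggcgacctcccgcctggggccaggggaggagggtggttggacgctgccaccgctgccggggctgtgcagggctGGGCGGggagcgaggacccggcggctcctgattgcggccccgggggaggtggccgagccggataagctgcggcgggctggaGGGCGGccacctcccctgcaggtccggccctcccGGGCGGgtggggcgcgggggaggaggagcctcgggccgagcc

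The motifs were searched on both strands of the full 250 bases, and each is given here with its share among 35116 RefSeq windows of that length. The GC box GGGCGG matched 3 times in STEAP3, 1 time in STEAP2 (starting in the last 2 printed bases and running past them, so left in lower case) and 0 times in STEAP1, and 42.6% of all windows hold it. The metal response element core matched STEAP2 1 time as TGCGCNC (in 16.8% of windows) and 1 time as TGCACNC (in 9.87%), and neither form matched STEAP1 or STEAP3. Neither TATAAA (10.7% of windows) nor the androgen response half-site AGAACA (12.4%) matched any of the 3. No match of one motif overlapped a match of another. GC content was 64.4% for STEAP1, 69.6% for STEAP2 and 78.4% for STEAP3, against a median of 58.0% over all windows.

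The libraries held 23817310 to 30617873 recovered reads, spike-ins included. Deviations of libraries from their group means were correlated between the groups across the 11506 genes that average 100 or more normalized reads. Those of ALDH high 2 correlated with those of ALDH low 1 (r = 0.56). Those of ALDH low 2 correlated with ALDH high 1 and ALDH high 3 (r = 0.39 and 0.36). The other pairs ran from −0.51 to 0.14. Deviations cancel within a group, so correlations of both signs are built in. With the group means taken out, these values cannot show whether libraries group by label. These are descriptions across genes, which are not independent replicates. All 7 luminal prostate markers were in the table (KLK3, KLK2, HOXB13, KRT8, KRT18, FOLH1 and ACPP), with summed normalized reads of 164185 to 182487 for ALDH high and 164501 to 200431 for ALDH low. The basal list had 1 of 5 in the table (KRT14, at 70.2 to 215 and 95.7 to 286), the endothelial list 1 of 4 (VWF, at 189 to 417 and 235 to 386) and the leukocyte list 1 of 5 (CD68, at 16.4 to 32.0 and 19.9 to 27.9). Of the fibroblast markers 2 of 5 were found, COL1A1 and PDGFRB. Their sums were 1539 to 1846 for ALDH high and 881 to 1519 for ALDH low, and the lowest was that of ALDH low 1. These sums did not overlap between the groups. COL1A1 and PDGFRB taken singly did not overlap either, and both were measured higher in ALDH high. Of all genes, counted singly, 6.99% also had groups without overlap. In the limma comparison described below, neither COL1A1 nor PDGFRB passed the test (adjusted p = 0.984 for each). The other markers of these lists were not analysed here.

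STEAP1 and STEAP2 were abundant transcripts of LNCaP cells in both groups, and STEAP3 was of middling abundance. Per kilobase of exon, STEAP1 averaged 3220 ± 816 normalized reads, STEAP2 955 ± 107 and STEAP3 148 ± 18.1 (SD over n = 6 libraries). A normalized read count is the gene's count divided by 1 size factor per library. Of the 15939 genes with an annotated length, STEAP1 stood at the 97.7th percentile, STEAP2 at the 91.3rd and STEAP3 at the 59.3rd, where the median gene had 99.3 reads per kilobase. In every library STEAP1 lay above STEAP2 and STEAP2 above STEAP3 on this scale. The lowest library of STEAP1 had 2648 reads per kilobase and the highest of STEAP2 1134, and the lowest of STEAP2 had 812 and the highest of STEAP3 175.

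How far STEAP1 lay above STEAP2 rests on the length assumed for STEAP2, whose 7 annotated coding transcripts of the GENCODE basic set run from 1372 to 7033 bases. With the longest transcript of each gene, the means were 3986 reads per kilobase for STEAP1, 1183 for STEAP2 and 159 for STEAP3. With the shortest, STEAP2 came to 6065, above STEAP1, which has 1 such transcript and stayed at 3986, and STEAP3 came to 361. The order of STEAP1 and STEAP2 therefore depends on the length used, and the table counts whole genes. STEAP3 was lowest under each of the 3 lengths.

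**Figure D1:**
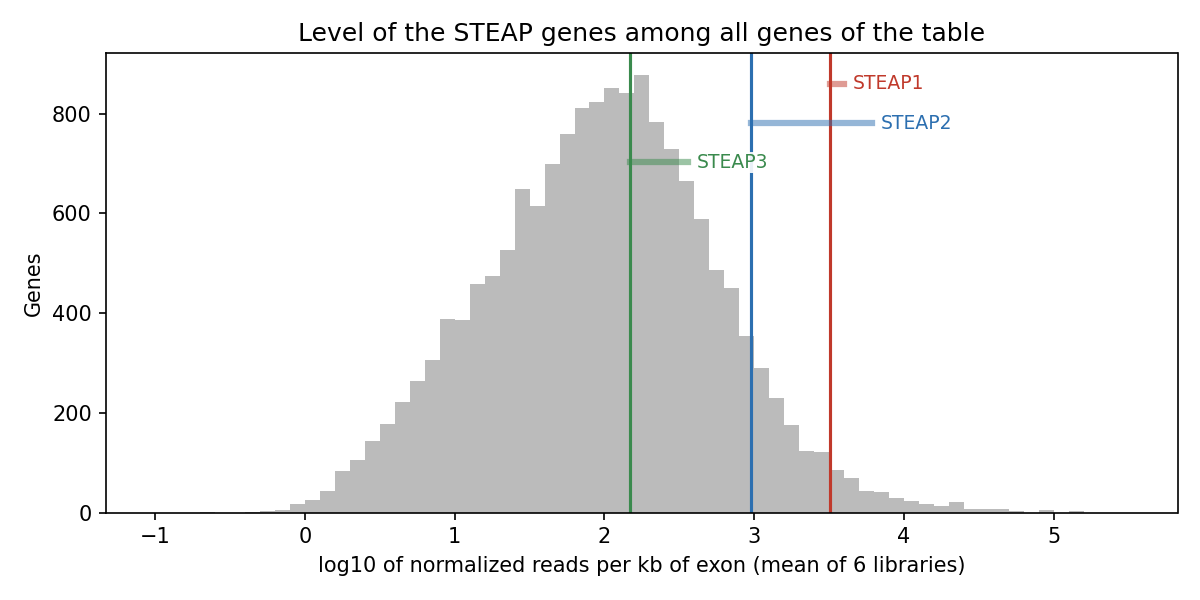
Number of genes (grey bars, vertical axis) by log10 of normalized reads per kilobase of exon, mean of 6 libraries (horizontal axis). Vertical lines mark STEAP1 (red, 3220 reads per kilobase), STEAP2 (blue, 955) and STEAP3 (green, 148) over all exon bases, and each horizontal bar spans the values that the 3 choices of length give. The bar of STEAP2 reaches 6065 and crosses the line of STEAP1.

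Between ALDH high and ALDH low, none of the 3 genes passed the test, and each had overlapping groups. STEAP1 was measured lower in ALDH high, at 0.755 times its ALDH low level, and STEAP2 and STEAP3 were measured 1.10 and 1.11 times higher. The comparison was fitted with limma on log2(normalized read count + 1) over all genes, with Benjamini-Hochberg adjustment. An adjusted p under 0.05 was reached by 0 of 3 members and by 0 of 16000 genes, a background of 0%. Without adjustment, p was under 0.05 for 338 genes with limma (2.11%), 357 with edgeR on the recovered reads (2.23%), 355 with DESeq2 (2.22%) and 337 with limma-voom (2.11%). Of the members, 0 were under it with limma and limma-voom, and 1, STEAP1, was with edgeR (unadjusted p of 0.0431, adjusted p of 0.991) and with DESeq2 (unadjusted p of 0.0335, adjusted p of 0.998). After adjustment edgeR, DESeq2 and limma-voom also called 0 genes. With both samples numbered 2 left out, limma called 107 genes (0.669%) and 0 of 3 members, and the unadjusted p was under 0.05 for 15.3% of genes. Groups without overlap were found for 0 of 3 members, against 6.99% of all genes (3.67% higher and 3.32% lower in ALDH high). In bulk RNA, fewer cells that express a gene and less RNA in each cell cannot be told apart.

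STEAP1 had normalized counts of 4729, 4309 and 4302 for samples 1, 2 and 3 of ALDH high, and of 7760, 4691 and 5606 for those of ALDH low. ALDH low 1 and ALDH low 3 stood above the rest, and ALDH low 2 lay just under ALDH high 1, so the groups overlapped by that 1 library. ALDH high averaged 4447 ± 244 and ALDH low 6019 ± 1576 (SD, n = 3 each). The log2 difference, ALDH high minus ALDH low, was −0.41 (SE 0.19, 95% interval −0.82 to 0.0093), with a limma unadjusted p of 0.0544 and adjusted p of 0.984. By unadjusted p, STEAP1 ranked 384 of 16000 genes. The authors' deposited table gives 0.44 for ALDH low minus ALDH high, with a p of 0.0338 and an adjusted p of 0.998. Without ALDH low 1 the log2 difference was −0.21 by limma (adjusted p = 0.967), and without ALDH low 2 it was −0.57 (95% interval −0.98 to −0.16, unadjusted p of 0.0119 and adjusted p of 0.436).

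STEAP1 varied more among ALDH low samples than among ALDH high samples, a difference in spread that was not tested. It was not particular to STEAP1. Of the neighbours and the iron and copper genes given below with an SD, all but SOD1 and FECH had the larger SD in ALDH low. Recovered reads ran from 3764 in ALDH high 3 to 8958 in ALDH low 1, and 3764 reads have a counting error of 1.63%. The coefficient of variation was 5.49% among ALDH high samples and 26.2% among ALDH low samples. From the lowest to the highest library STEAP1 differed by 1.80-fold, and its range of 0.85 on the log2 scale was wider than that of 77.0% of the 11506 genes that average 100 or more normalized reads. ALDH low 1 was also the library with the smallest share of mitochondrial reads (2.003%, against 2.88% to 4.88% in the others) and the lowest sum over fibroblast markers. The part of these in the STEAP1 result was not tested.

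STEAP2, the NADPH-dependent reductase that adjoins STEAP1, had normalized counts of 8280, 9884 and 7988 for samples 1, 2 and 3 of ALDH high, and of 8014, 8689 and 7075 for those of ALDH low. ALDH high 2 was the highest library and ALDH low 3 the lowest, and the other 4 lay between 7988 and 8689. ALDH high averaged 8717 ± 1021 and ALDH low 7926 ± 810 (SD, n = 3 each). The limma log2 difference was 0.14 (SE 0.16, 95% interval −0.21 to 0.48, adjusted p = 0.984), so changes beyond 1.40-fold up or to 0.864-fold down lie outside the interval. Leaving out ALDH high 2 gave 0.042 and leaving out ALDH low 3 gave 0.057. With 6605 to 10834 reads per library, the counting error was at most 1.23%, and the coefficients of variation were 11.7% in ALDH high and 10.2% in ALDH low.

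STEAP3, the endosomal ferric reductase, had normalized counts of 798, 633 and 704 for samples 1, 2 and 3 of ALDH high, and of 591, 734 and 598 for those of ALDH low. ALDH high 1, ALDH low 2 and ALDH high 3 were the highest, in that order, and ALDH high 2 lay with ALDH low 1 and ALDH low 3 below them. Means were 712 ± 82.7 and 641 ± 80.8 (SD, n = 3 each). The limma log2 difference was 0.15 (SE 0.17, 95% interval −0.22 to 0.53, adjusted p = 0.984), and it was 0.066 without ALDH high 1. Without both samples numbered 2 it was 0.33 (adjusted p = 0.421). The 3 libraries with more STEAP3 had mitochondrial read shares of 4.87%, 4.52% and 4.88%. The shares were 2.88% for ALDH high 2, 2.003% for ALDH low 1 and 2.98% for ALDH low 3. The part of this in the STEAP3 values was not tested. The gene had 558 to 762 reads per library, where counting alone gives an error of up to 4.23%.

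**Figure D2:**
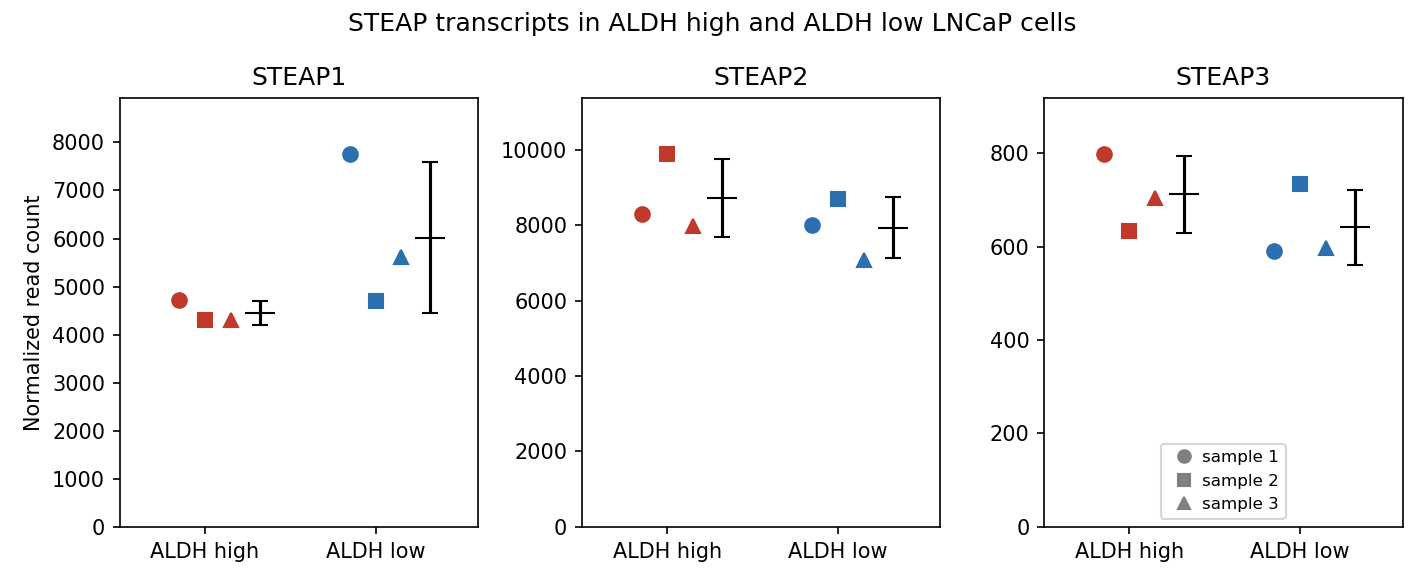
Normalized read counts (vertical axes, each from 0) of STEAP1, STEAP2 and STEAP3 in ALDH high (red) and ALDH low (blue) LNCaP cells. Symbols are single libraries, shaped by sample number, and black bars give the mean ± SD of 3. ALDH low 1 at 7760 stands apart in STEAP1, while the groups overlap in all 3 genes.

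The members did not share one order of libraries. STEAP1 was highest in ALDH low 1, STEAP2 in ALDH high 2 and STEAP3 in ALDH high 1. The ratio of STEAP1 to STEAP2 normalized reads, which no scaling between libraries affects, was 0.571, 0.436 and 0.539 for samples 1 to 3 of ALDH high and 0.968, 0.540 and 0.792 for those of ALDH low. ALDH low 1 and ALDH low 3 were again above the rest. The log2 difference of this ratio was −0.54, and it was −0.35 without ALDH low 1 and −0.78 without ALDH low 2. With all samples it had a two-sided exact permutation p of 0.2 (0.3 adjusted over the 3 ratios), where 0.1 is the smallest p that 3 samples against 3 can give.

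The ratio of STEAP3 to STEAP1, in which STEAP1 ranged 1.80-fold over the libraries and STEAP3 1.35-fold, was 0.169, 0.147 and 0.164 for samples 1 to 3 of ALDH high and 0.0761, 0.156 and 0.107 for those of ALDH low, a log2 difference of 0.56 (two-sided exact permutation p = 0.2, adjusted 0.3). Without ALDH low 1 the difference was 0.30, without ALDH low 2 it was 0.82, and without both samples numbered 2 it was 0.88. STEAP3 to STEAP2 ran from 0.0641 in ALDH high 2 to 0.0964 in ALDH high 1. Both extremes of that ratio were ALDH high samples, and its log2 difference was 0.016 (two-sided exact permutation p = 1, adjusted 1).

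For each member, the 3 genes with the most similar values over the 6 libraries were taken from 11503 genes that average 100 or more. Likeness was the root mean square difference of log2(normalized read count + 1), each gene centred on its own mean, which is a description of these 6 libraries and carries no test. Nearest to STEAP1 were TFB2M, a mitochondrial transcription factor (0.034 on the log2 scale), DCAF13, a ribosome biogenesis factor (0.039), and MMADHC, which acts in vitamin B12 metabolism (0.045). The median gene lay 0.36 from STEAP1, and STEAP1 itself deviated by 0.30 from its own mean. TFB2M gave normalized counts of 1032, 900.5 and 925 for samples 1, 2 and 3 of ALDH high, and 1583, 1007 and 1164 for those of ALDH low. It thus had the same pair of high libraries as STEAP1, ALDH low 1 and ALDH low 3.

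Nearest to STEAP2 were ABCA3, a lipid transporter (0.016), TBX3, a developmental transcription factor (0.030), and FOCAD (0.032), where STEAP2 deviated by 0.15 from its own mean. Like STEAP2, ABCA3 was highest in ALDH high 2 (3532 normalized reads) and lowest in ALDH low 3 (2544). For STEAP3, which deviated by 0.16, they were CBX2, a Polycomb subunit (0.031), RHBDL2, a rhomboid protease (0.036), and the noncoding LINC02210 (0.037). CBX2 stood at 3092 normalized reads for ALDH high 1, 2860 for ALDH high 3 and 3016 for ALDH low 2. Its counts were lower for the rest, at 2514 for ALDH high 2, 2306 for ALDH low 1 and 2422 for ALDH low 3.

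**Figure D3:**
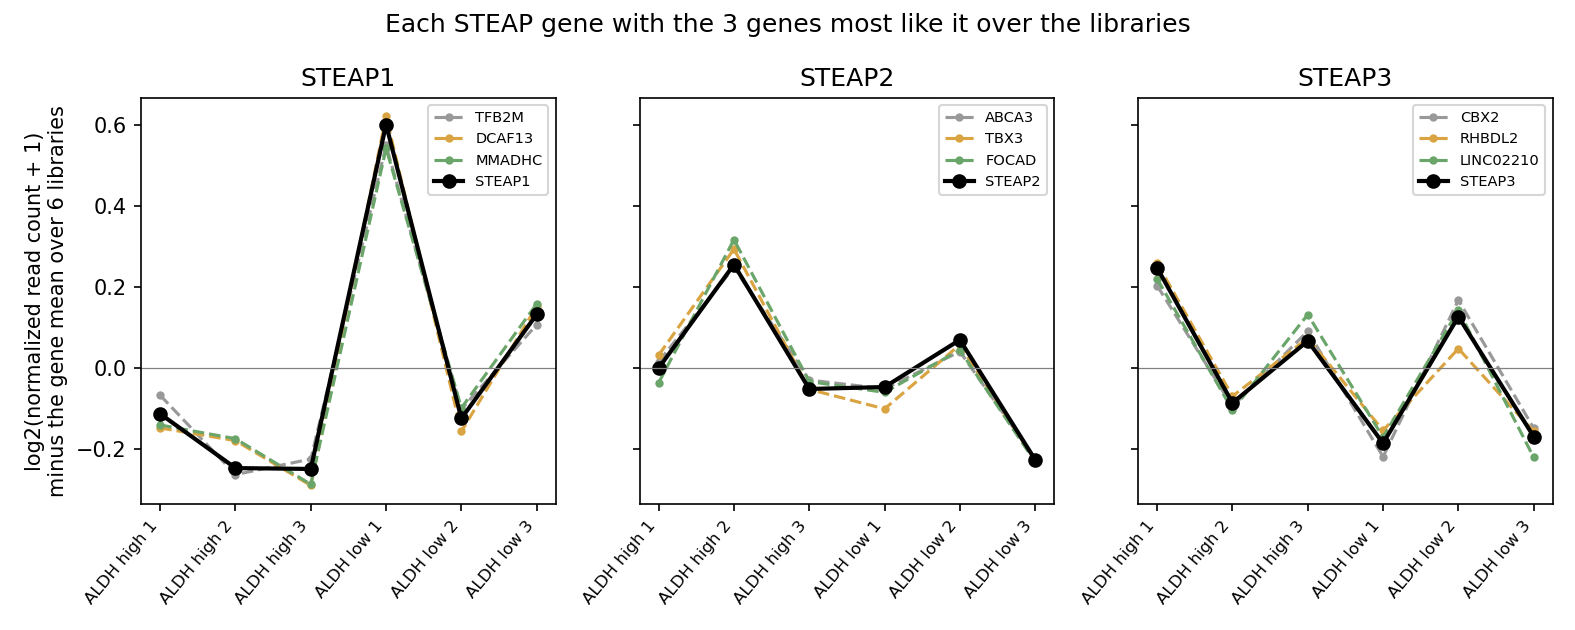
Values of log2(normalized read count + 1) minus each gene's own mean (vertical axis) in the 6 libraries (horizontal axis) for STEAP1, STEAP2 and STEAP3 (black) and the 3 genes most like each (dashed). STEAP1 and its nearest genes peak in ALDH low 1, STEAP2 and its nearest genes in ALDH high 2, and STEAP3 is highest in ALDH high 1. The genes were chosen for this likeness.

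Genes within 500 kb of a member were also read. All 5 around STEAP1 and STEAP2 lie on the far side of STEAP2 from STEAP1, and the nearest are CFAP69, a sperm flagellum gene at chr7:90245174-90311063, and GTPBP10, which acts in mitochondrial ribosome assembly, at chr7:90335223-90391455. Normalized reads of CFAP69 averaged 96.5 ± 16.4 for ALDH high and 79.0 ± 28.3 for ALDH low, and those of GTPBP10 921 ± 85.7 and 1169 ± 377 (SD, n = 3 each). GTPBP10 was highest in ALDH low 1, as STEAP1 was, at 1604 reads against 838 to 1009 in the other 5 libraries. Of these 5 genes 3 had differences above 0 and 2 below. Near STEAP3, 4 of 5 genes had differences below 0, opposite in sign to STEAP3. The nearest were C2orf76 (346 ± 8.49 and 471 ± 119) and DBI, an acyl-CoA binding protein (2773 ± 133 and 3930 ± 1234). None of the 10 neighbours passed the adjusted threshold with limma, edgeR, DESeq2 or limma-voom. At an unadjusted p under 0.05, limma and limma-voom counted 0 of the 10, and edgeR and DESeq2 counted 1, DBI. Over all 16000 genes the share was 2.11% with limma and limma-voom, 2.23% with edgeR and 2.22% with DESeq2.

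Genes of iron and copper handling, the pathways that STEAP reductases feed, did not pass the test in either direction. Of 78 listed genes 62 were in the table, 30 with differences above 0 and 32 below, and the median was −0.012, beside 52.3% above 0 and a median of 0.015 over all 16000 genes. With limma, edgeR, DESeq2 and limma-voom, 0 of the 62 passed the adjusted threshold and 0 had an unadjusted p under 0.05. Over all 16000 genes the shares were 0% and, by tool, 2.11% to 2.23%, so these counts do not set the lists apart. Every one of the 62 limma 95% intervals included 0, as did those of 15662 of all 16000 genes. Within a 2-fold change either way lay 59 of the 62, beside 11958 of the 16000. The exceptions, TFR2, PCBP3 and TMPRSS6, are genes of low count here. The groups did not overlap in 2 of the 62, against 6.99% of all genes. These were LYRM4, an iron-sulfur cluster assembly factor (738 ± 20.4 normalized reads for ALDH high and 888 ± 111 for ALDH low), and COX11, a copper chaperone of cytochrome oxidase (1349 ± 9.16 and 1537 ± 296), both named after their values were seen (SD, n = 3 each).

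Among other ferric reductases and cytochrome b561 relatives, 5 of 7 were in the table, 3 above 0 and 2 below, with a median log2 difference of 0.0070. By level per exon length the leading ones were CYB561, a transmembrane electron carrier (7332 ± 328 normalized reads for ALDH high and 7252 ± 515 for ALDH low), and CYB561D2 (919 ± 34.5 and 1016 ± 191). Per kilobase of exon CYB561 averaged 1371 normalized reads and CYB561D2 464, so CYB561 lay between STEAP1 and STEAP2 when all exon bases are used. The duodenal reductase gene CYBRD1 was not analysed here.

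In the transferrin cycle and iron uptake, where STEAP3 acts, 9 of 13 genes were in the table, 5 above 0 and 4 below, with a median of 0.042. The 2 with the highest level per exon length were SNX3, a sorting nexin that recycles the transferrin receptor (3532 ± 134 and 4256 ± 814), and TFRC, the transferrin receptor (6516 ± 1415 and 6868 ± 1530). The limma log2 difference of TFRC was −0.073 (95% interval −0.53 to 0.39, adjusted p = 0.988). Samples 1, 2 and 3 gave TFRC 5958, 8125 and 5465 normalized reads for ALDH high and 8368, 6926 and 5310 for ALDH low. Its highest libraries were thus ALDH low 1 and ALDH high 2, the libraries in which STEAP1 and STEAP2 respectively peaked.

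For iron storage, export and regulation, 13 of 19 genes were in the table, 8 above 0 and 5 below (median 0.033). The ferritin chains led by level per exon length, with FTH1, the heavy chain, at 28921 ± 2948 normalized reads for ALDH high and 28565 ± 6058 for ALDH low, and FTL, the light chain, at 5184 ± 212 and 5991 ± 1978. Mitochondrial iron, iron-sulfur cluster and heme genes were all in the table, 18 of 18, with 8 above 0 and 10 below (median −0.068). They were led by FECH, which inserts iron to form heme (9378 ± 1063 and 9890 ± 927), and ALAS1, the first enzyme of heme synthesis (3352 ± 519 and 3011 ± 871). Of the copper genes 17 of 21 were in the table, 6 above 0 and 11 below (median −0.12). Here SOD1, the copper-zinc superoxide dismutase (6231 ± 1288 and 6753 ± 816), and MT2A, a metallothionein (1641 ± 262 and 1916 ± 726), led. All values are normalized reads, mean ± SD with n = 3 each.

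**Figure D4:**
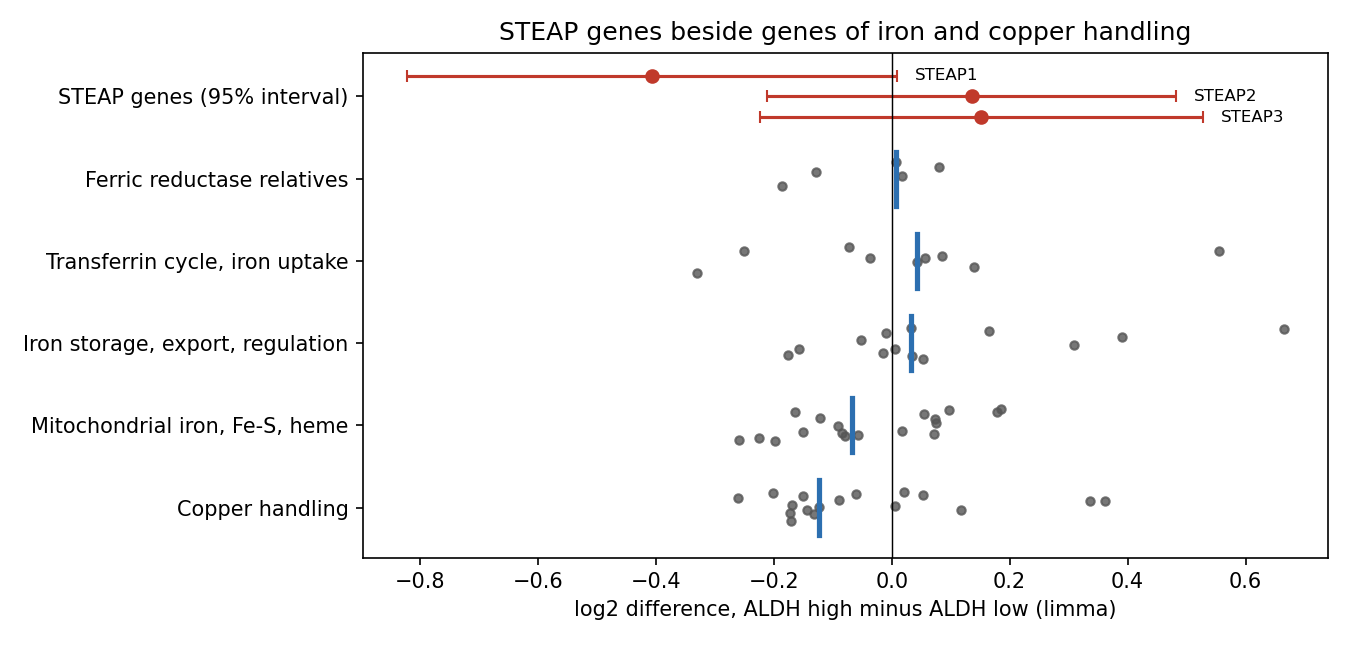
Limma log2 differences, ALDH high minus ALDH low (horizontal axis), of the 3 STEAP genes (red, with 95% intervals) and of single genes from 5 lists of iron and copper handling (grey points, spread vertically within a row so that they can be seen). Blue bars are list medians, from −0.12 for copper handling to 0.042 for the transferrin cycle. All 3 STEAP intervals include 0.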

How the data were processed

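RNA was measured in 6 samples of LNCaP cells, 3 ALDH high and 3 ALDH low. The submitters' processing notes name the build GRCh38 and the tools DESeq2, STAR 2.5.2b, Trimmomatic 0.36 and Subread 1.5.2 (featureCounts). Read length and annotation release are details not given in the sources used here. In the table that the authors deposited, each gene and sample has a normalized signal, a count divided by 1 size factor per sample, and each gene has the authors' log2 fold change, p-value and adjusted p-value. Values were whole multiples of 1 step per sample, so whole reads were recovered (at least 99.98% whole within 0.02 of a read). After removal of 46 spike-in rows, 16000 genes remained, none with a mean under 9.65 normalized reads, and 15939 matched GENCODE release 29.

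The main test, on log2(value + 1), was limma 3.58.1 with its trend option (R 4.3.3), tested on simulated data. This scale understates changes of low genes. Alternatives were edgeR 4.0.16, DESeq2 1.42.0 and limma-voom on recovered reads, other pseudocounts, filters and scalings, omission of samples, and a block. Named genes were the members, the 2 genes of each iron or copper list with the highest level per exon length, the nearest neighbours, the 3 genes most like each member, and markers. Members and lists were chosen with earlier results of these data known. Intervals and counting errors do not cover variation between sorts.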

Additional observations from a re-analysis of the deposited data

How the results depend on the processing

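Each member kept its direction and stayed short of the adjusted threshold in 18 of 18 alternatives. These were pseudocounts of 0.5 and 5, a minimum mean of 100, no mean-variance trend, edgeR, DESeq2, limma-voom, 3 other scalings, the block, each library left out in turn, and both samples numbered 2 left out. With single libraries left out, the log2 difference ran from −0.57 to −0.21 for STEAP1, from 0.042 to 0.20 for STEAP2 and from 0.066 to 0.25 for STEAP3, and the number of genes called by limma stayed at 0. Over the other alternatives it ran from −0.55 to −0.35, from 0.11 to 0.20 and from 0.15 to 0.33. The lowest adjusted p of any alternative was 0.272, for STEAP1 without both samples numbered 2. That omission left 2 samples a group and called 107 genes (0.669%), none of them a member, and the cause was not tested. The difference, ALDH high minus ALDH low, in the log2 ratio of STEAP1 to STEAP2 ran from −0.78 to −0.35 with single libraries left out. For STEAP3 to STEAP1 that difference ran from 0.30 to 0.82. The same difference for STEAP3 to STEAP2 ran from −0.10 to 0.19 with single libraries left out. Its sign changed on leaving out ALDH high 1 (−0.10), ALDH high 3 (−0.039) or ALDH low 1 (−0.049). STEAP1 minus STEAP2 per kilobase (log2) was 1.73 with all exon bases and reversed to −0.63 with the shortest coding transcripts, a choice made after seeing the data, as were the omissions for the ratios.

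With the sample number as a block, the log2 differences were −0.41 for STEAP1, 0.14 for STEAP2 and 0.15 for STEAP3, with 0 genes called. The unadjusted limma p of STEAP1 was then 0.0386 and the adjusted p 0.999. Whether equal numbers pair the samples is not stated. The deviations of same-numbered samples from their group means correlated across genes at −0.46, −0.43 and 0.14 for numbers 1, 2 and 3. With 3 samples a group, these correlations cannot decide whether equal numbers share a sort.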
